A study of Rattus norvegicus with 6 samples.

Results

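The Egr and Nr4a genes encode transcription factors that neurons switch on within minutes of stimulation. Their transcripts were compared in the medial prefrontal cortex (mPFC) of rats given lysergic acid diethylamide (LSD), a hallucinogen that activates serotonin receptors, and of rats given saline. All 7 genes, Egr1 to Egr4 and Nr4a1 to Nr4a3, were on the array. They were read by 15 probe sets, which are groups of short oligonucleotides against 1 transcript, out of 8740 probe sets in all. A probe set was taken as a member when the platform annotation gave it exactly 1 of these gene symbols and no other.

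Male Sprague-Dawley rats received 1.0 mg/kg LSD tartrate intraperitoneally or an intraperitoneal saline injection, and the tissue was taken 90 min later. Each group was read on 3 Affymetrix arrays (LSD 1 to 3 and Saline 1 to 3), and no genotype or other agent differed between them. By the labels, tissue of 4 animals per group was pooled ahead of extraction, but by the study's account each array held 2 pooled rats. What separates the 3 arrays of a group may thus be technical alone or include differences between pools of rats. The p-values cover only that spread, whichever it is. The second line of each sample description names the opposite treatment from its title and treatment label. Titles and treatment labels were followed here, and every sign given would turn if the descriptions were right.

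Pairs of arrays correlated between 0.984 and 0.996 over all probe sets. Saline 1 stood apart, with 78 probe sets that departed from the average of the remaining arrays by over 1 log2 unit. The LSD arrays had 2 to 21 of these, and Saline 2 and Saline 3 had 6 and 12. Signal from the 3' end of beta-actin exceeded that from its 5' end, which grows as RNA degrades, by 0.640 to 0.712 log2 units on LSD arrays and by 0.749 to 0.835 on saline arrays, without overlap. The same quantity overlapped for Gapdh, and its part in the results that follow was not tested. Of 8 listed markers of excitatory cortical neurons 5 were measured, with a median log2 difference of 0.02 and mean log2 signals of 4.75 (Slc17a7, the vesicular glutamate transporter) to 11.02 (Nrgn). The signal of Slc17a7 lay below the array medians of 5.43 to 5.45.

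Egr proteins are zinc finger activators that bind GC-rich promoter sites, and Nab co-repressors hold them back. Nr4a proteins are orphan nuclear receptors that act without a known ligand, bind a site named NBRE as monomers, and, in the case of Nr4a1 and Nr4a2, also pair with retinoid X receptors. In neurons their genes respond through serum response factor and its partners at the CArG box, and through the CREB protein at the cyclic AMP response element (CRE). Egr1 is the widely used marker of recent neuronal activity, Egr2 also drives myelination in Schwann cells, and Nr4a2 is needed for midbrain dopamine neurons.

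Promoter sequence is shown for the 4 genes that had more than 1 match to the sites named above. RefSeq promoters of the GRCr8 assembly were found for 5 of the 7 genes (Egr1, Egr2, Egr4, Nr4a1 and Nr4a2). The 250 bases before each start site were searched on both strands. Capitals mark matches to the CArG box, to the CRE core TGACG, which reads CGTCA on the other strand, and in Nr4a1 to an Egr site as well. Each stretch is written 5′ to 3′ in the direction of transcription.

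Egr1 (GRCr8 chr18:26736933-26737026, + strand): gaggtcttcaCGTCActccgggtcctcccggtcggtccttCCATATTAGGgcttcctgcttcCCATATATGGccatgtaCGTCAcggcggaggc

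Egr2 (GRCr8 chr20:21054493-21054534, - strand): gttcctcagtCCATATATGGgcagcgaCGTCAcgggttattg

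Egr4 (GRCr8 chr4:119607913-119608005, - strand): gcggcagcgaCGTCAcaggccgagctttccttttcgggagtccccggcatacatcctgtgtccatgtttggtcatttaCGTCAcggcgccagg

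Nr4a1 (GRCr8 chr7:134259888-134260099, + strand): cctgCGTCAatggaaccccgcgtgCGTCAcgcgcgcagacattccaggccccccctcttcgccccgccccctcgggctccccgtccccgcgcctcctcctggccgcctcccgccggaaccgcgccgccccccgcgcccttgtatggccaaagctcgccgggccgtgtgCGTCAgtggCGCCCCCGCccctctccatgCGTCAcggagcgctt

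Egr1 and Egr2 both held the CArG box CCATATATGG, with its last base 74 bases before the start in each, followed after 7 bases by a CRE core. Egr1 held another CArG box, CCATATTAGG. A CArG box was found in 2 of the 5 promoters, against 1.5% of 33469 promoters searched in the same way. The CRE core was in all 5, against 18.2% of all promoters, with 4 copies in Nr4a1 and 1 in Nr4a2. The Egr site, searched as GCGTGGGCG or GCGGGGGCG, was found in Nr4a1 alone of the 5, against 2.85% of promoters. The NBRE (AAAGGTCA) was in none of the 5, against 1.24%, nor was the full CRE (TGACGTCA), which contains the core, against 1.59%, or the TATA box (TATAAA), against 4328 of the 33469. These matches describe the letters in the window and not binding.

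At 90 min after LSD no member passed the test in either direction. Of 15 probe sets, 6 were nominally higher and 9 nominally lower, with a median log2 difference of -0.03, beside a median of 0.0045 over all 8740 probe sets. In limma, 0 of the 15 passed an adjusted p of 0.05, against 0.0686% of all probe sets. An unadjusted p below 0.05 was found for 1 of the 15, that of Egr2, against 3.92% of all. The LSD and saline arrays overlapped in all 15, whereas over all probe sets they did not overlap for 6.58% with LSD higher and for 3.79% with LSD lower. By the exact rank test, whose smallest possible p with 3 arrays against 3 is 0.1, 0 passed.

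The 95% intervals bounded how far these transcripts could have differed between these arrays, on the scale of these values. Like the p-values they may cover technical spread alone, and they were not widened for 15 probe sets. The highest upper bounds were 1.35-fold higher with LSD for the Nr4a3 probe set rc_AI176710_at and 1.31-fold higher for L08595_at of Nr4a2. The furthest lower bound was 1.495-fold lower with LSD, for Egr2. Intervals of all 15 thus lay within 1.5-fold in both directions. Standard errors of the members ran from 0.084 to 0.16 log2 units, beside a median of 0.11 over all probe sets. The mean signal of 5 probe sets (those of Egr2, 1 of 4 of Egr1, 1 of 2 of Nr4a2 and 2 of 3 of Nr4a3) lay below the median of all probe sets. The normalisation used tends to compress fold changes at low signal, so these are bounds on this scale only.

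**Figure D1:**
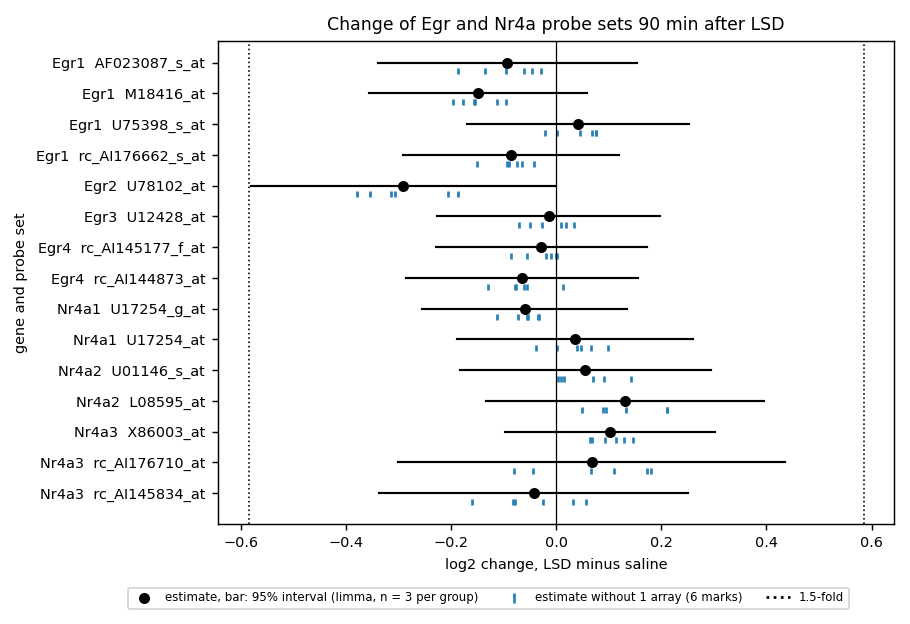
Log2 difference, LSD minus saline (horizontal axis), of the 15 probe sets of the Egr and Nr4a genes, with points for the limma estimate, bars for its 95% interval (n = 3 arrays per group) and blue marks for the estimate without each array in turn. Dotted lines mark 1.5-fold in either direction, and all 15 bars lie between them.

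Egr1 was read by 4 probe sets, of which 3 were nominally lower and 1 nominally higher. The probe set with the highest signal, AF023087_s_at, stood at 8.72, 8.82 and 8.89 log2 units on LSD arrays, against 8.71, 9.03 and 8.96 on saline arrays. Saline 1 was the lowest of the 6, and the other saline arrays were above all LSD arrays. Its mean was 8.81 ± 0.088 with LSD and 8.90 ± 0.17 with saline (SD, n = 3 each), a log2 difference of -0.09 ± 0.11 (SE, limma adjusted p = 0.981).

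The Egr1 probe set M18416_at had the largest difference of the 4. It stood at 7.21, 7.17 and 7.08 log2 units on LSD arrays, against 7.20, 7.29 and 7.41 on saline arrays. The groups overlapped only because LSD 1 was just above Saline 1. The log2 difference was -0.15 ± 0.090 (SE, 95% interval -0.36 to 0.06, limma adjusted p = 0.981). The probe set rc_AI176662_s_at differed by -0.09 ± 0.089, with LSD arrays between 5.16 and 5.20 and saline arrays between 5.13 and 5.35. In U75398_s_at the log2 difference was 0.04 ± 0.092, with LSD arrays between 6.09 and 6.24 and saline arrays between 5.996 and 6.19. A name ending in _s_at marks a probe set that can match several transcripts, as 3 of these 4 do.

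Egr2 showed the largest nominal difference of the 7 genes, at a low signal. Its only probe set, U78102_at, stood at 3.10, 3.34 and 3.49 log2 units on LSD arrays, against 3.77, 3.48 and 3.56 on saline arrays. LSD 1 was the lowest and Saline 1 the highest of the 6, and LSD 3 lay just above Saline 2. The mean was 3.31 ± 0.19 with LSD and 3.60 ± 0.15 with saline (SD, n = 3 each). The log2 difference was -0.29 ± 0.13 (SE, 95% interval -0.58 to -0.00077), 1.22-fold lower with LSD, and it did not pass (limma unadjusted p = 0.0495, adjusted p = 0.981). Leaving out single arrays moved it between -0.38 (without LSD 3) and -0.19 (without LSD 1). Over all probe sets, 3.88% had a lower p than Egr2, and 13% a lower mean signal.

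Egr3, a close relative of Egr1, showed almost the same levels in both groups. Its probe set U12428_at stood at 6.14, 5.96 and 5.98 log2 units on LSD arrays, against 6.14, 5.97 and 6.01 on saline arrays. LSD 1 and Saline 1 were equally high, and the log2 difference was -0.01 ± 0.092 (SE, limma adjusted p = 0.993). The interval from -0.23 to 0.20 corresponds to folds between 0.855 and 1.15.

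Egr4 was read by rc_AI145177_f_at, whose ending marks probes shared with related sequences, and by rc_AI144873_at. Of these, rc_AI145177_f_at stood at 7.48, 7.48 and 7.65 log2 units on LSD arrays, against 7.51, 7.601 and 7.58 on saline arrays, so that the saline arrays lay inside the LSD range. Its log2 difference was -0.03 ± 0.087 (SE). In rc_AI144873_at, LSD 1 at 5.78 was the lowest of the 6, and the other 5 arrays lay between 5.97 and 6.07. The log2 difference there was -0.06 ± 0.096 (SE), and without LSD 1 it was 0.01.

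**Figure D2:**
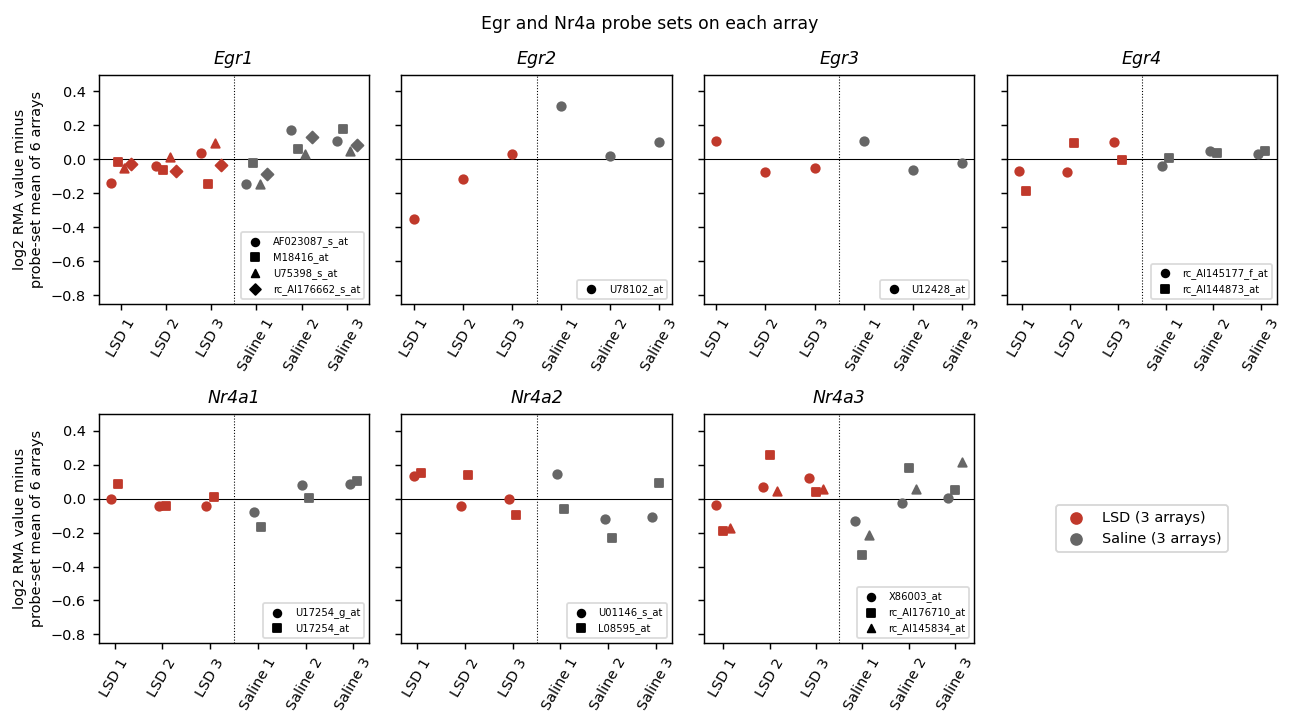
Log2 RMA value of each probe set minus its mean over the 6 arrays (vertical axis), by array (horizontal axis), in 1 panel per gene, with LSD arrays in red, saline arrays in grey and 1 symbol per probe set. The groups overlap in every panel, Egr2 has its lowest point on LSD 1 and its highest on Saline 1, and all 3 Nr4a3 probe sets are lowest on Saline 1.

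Nr4a1, also called Nur77, was read by U17254_g_at and U17254_at, which are named for the same source sequence and are not independent. U17254_g_at stood at 7.02, 6.98 and 6.98 log2 units on LSD arrays, against 6.95, 7.11 and 7.11 on saline arrays. The LSD arrays lay close together between Saline 1 and the other saline arrays. The log2 difference was -0.06 ± 0.084 (SE, limma adjusted p = 0.981). U17254_at stood at 6.28, 6.15 and 6.21 on LSD arrays, against 6.03, 6.20 and 6.30 on saline arrays, and differed by 0.04 ± 0.097. The sign of Nr4a1 thus depended on the probe set, and without Saline 1 the differences stood at -0.11 and -0.04.

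Nr4a2, also called Nurr1, was nominally higher in both of its probe sets. L08595_at stood at 4.39, 4.38 and 4.15 log2 units on LSD arrays, against 4.18, 4.01 and 4.34 on saline arrays. LSD 1 and LSD 2 were above all saline arrays, while LSD 3 lay within their range. The log2 difference was 0.13 ± 0.11 (SE, 95% interval -0.13 to 0.39, limma adjusted p = 0.981), the highest of the 15. U01146_s_at stood at 6.27, 6.10 and 6.14 on LSD arrays, against 6.29, 6.02 and 6.03 on saline arrays, and differed by 0.06 ± 0.10. Without Saline 1 its groups no longer overlapped and the difference was 0.14.

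Nr4a3, whose product is also known as NOR-1, was nominally higher in 2 of 3 probe sets. X86003_at stood at 5.91, 6.02 and 6.07 log2 units on LSD arrays, against 5.82, 5.92 and 5.96 on saline arrays. Only LSD 1 was below a saline array, and the log2 difference was 0.10 ± 0.087 (SE, limma adjusted p = 0.981). At lower signal, rc_AI176710_at differed by 0.07 ± 0.16 and rc_AI145834_at by -0.04 ± 0.13 (SE). Saline 1 was the lowest array in all 3, at 5.82, 3.58 and 3.51 log2 units.

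As families, 7 of 8 Egr probe sets were nominally lower with LSD, with a median log2 difference of -0.08, and 5 of 7 Nr4a probe sets were nominally higher, with a median of 0.06. Over all probe sets 51.4% were nominally higher. Probe sets of a gene share their RNA, so these counts are not counts of independent measurements, and the difference between the families was not tested. Leaving out single arrays gave 5 to 7 of 8 Egr probe sets lower and 3 to 6 of 7 Nr4a probe sets higher. Without Saline 1 the Nr4a median was -0.04.

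Saline 1 often held the lowest value. It was the lowest of the 6 arrays in 8 of the 15 probe sets, against 5 for the 3 LSD arrays together and 2 for the other saline arrays. The same count was not made over all probe sets, and probe sets of a gene are not independent. Of the 78 probe sets in which Saline 1 stood apart by over 1 log2 unit, 71 were higher on it. Without Saline 1 the groups separated in 5 probe sets. AF023087_s_at, M18416_at and rc_AI176662_s_at of Egr1 and U17254_g_at of Nr4a1 were lower with LSD, against 14.8% of all probe sets in that direction. U01146_s_at of Nr4a2 was higher, against 13.7%. None passed the test without Saline 1, and the lowest adjusted p among the 15 was then 0.558. The groups also separated in 3 members without LSD 3, 2 without LSD 1, and 1 each without LSD 2 and without Saline 2. Without Saline 3 they separated in 0. In those settings 9.83% to 13.8% of all probe sets separated with LSD higher and 6.62% to 8.39% with LSD lower.

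Probe sets of 1 gene were compared directly, over 12 pairs in 5 genes, of which 6 pairs had opposite signs. The per-array difference between the probe sets was set against treatment in a two-sided exact permutation test, which cannot give a p below 0.1. In Egr1, AF023087_s_at exceeded U75398_s_at by 2.65 ± 0.020 log2 units with LSD and by 2.78 ± 0.068 with saline (SD, n = 3 each, exact permutation p = 0.1, 0.6 after adjustment over the 12 pairs). U75398_s_at exceeded rc_AI176662_s_at by 0.982 ± 0.079 with LSD and by 0.855 ± 0.030 with saline (SD, n = 3 each, exact permutation p = 0.1). These were the 2 pairs without overlap between the groups, and both involve U75398_s_at. The remaining 10 pairs gave p between 0.2 and 0.9, among them Nr4a1 at 0.2. No pair passed after adjustment.

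With 1 probe set per gene, that of highest mean level, 0 of 7 passed over 4736 genes in limma, where 1 gene (0.0211%) passed, and the lowest adjusted p of the 7 was 0.971. Genes tied to these factors did not pass either. Of the co-repressors and retinoid X receptors, 4 of 5 were measured and all 4 were nominally lower, with a median log2 difference of -0.14 beside 0.0056 over all genes. Rxra differed by -0.17 ± 0.14, Rxrb by -0.16 ± 0.19 and Rxrg by -0.13 ± 0.094 (SE), and Nab1 by -0.01 ± 0.11. The groups overlapped in all 4, whereas over all genes they did not overlap for 6.97% with LSD higher and for 3.34% with LSD lower.

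Among kinases and factors that drive these promoters, 8 of 21 listed genes were measured, 3 nominally higher and 5 lower, with a median of -0.04 and 0 past the threshold. Srf and the Elk genes were not analysed here. Prkacb, a catalytic subunit of protein kinase A, differed by 0.15 ± 0.097, and Map2k1, the kinase above ERK, by -0.15 ± 0.13 (SE). Crem, a CRE-binding factor, differed by -0.13 ± 0.10 and Map2k2, a relative of Map2k1, by -0.10 ± 0.13 (SE).

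Genes that other work lists as Egr targets had 5 of 11 measured members nominally higher and 6 lower, with a median of -0.03. Arc, a postsynaptic plasticity gene, differed by 0.23 ± 0.083 (SE) and did not overlap between the groups. On the same arrays Egr2 and all Egr1 probe sets but U75398_s_at were nominally lower. Pmp22, a myelin protein gene tied to Egr2 in Schwann cells, differed by -0.15 ± 0.086 without overlap, and Syn2, a synaptic vesicle protein gene, by -0.10 ± 0.081 with overlap (SE). Listed targets of Nr4a factors were 5 higher and 5 lower of 10, with a median of -0.01. Bdnf, a neurotrophin, differed by -0.15 ± 0.077 and Ddc, an enzyme of dopamine and serotonin synthesis, by -0.14 ± 0.085, neither overlapping between the groups. Vip, a neuropeptide, differed by -0.10 ± 0.084 and Ret, a growth factor receptor, by 0.12 ± 0.098 (SE). Th, the rate-limiting enzyme of dopamine synthesis, stands in both lists and differed by 0.09 ± 0.087 (SE). No gene of either list passed (limma adjusted p of Arc 0.971). The genes named were those of lowest p in their lists. Over all 4736 genes the groups did not overlap for 6.97% with LSD higher and for 3.34% with LSD lower.

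Other rapid-response genes had 12 of 18 measured members nominally higher, with a median of 0.05, and 0 passed. The groups did not overlap in 4 of them (Arc, Fos, Dusp1 and Ccn1), all with LSD higher, beside 6.97% of all genes in that direction. Those 4 were picked out after their values were seen. No Egr or Nr4a gene was without overlap, which for 7 genes is near that share, and the difference between these genes and the other rapid-response genes was not tested.

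Among markers of neighbouring tissue, the mean levels of the striatal list and of the choroid plexus and meninges list did not overlap between the groups. The lists were chosen with earlier results of these data known, so this describes the arrays and tests nothing. Of 13 listed striatal markers 9 were measured and 8 were nominally lower with LSD, with a median log2 difference of -0.14. Their mean level lay between 6.42 and 6.53 log2 units on LSD arrays and between 6.64 and 6.67 on saline arrays. Penk differed by -0.46 ± 0.092 and Arpp21 by -0.36 ± 0.097 (SE). Pdyn, at 0.07 ± 0.096, and Gng7, at -0.03 ± 0.078 (SE), did not share that difference. Choroid plexus and meninges markers were nominally lower in 6 of 7. Their means lay between 6.78 and 6.82 on LSD arrays and between 6.96 and 6.98 on saline arrays. Ttr differed by -0.49 ± 0.086 and Enpp2 by -0.41 ± 0.15 (SE). Not all members shared that shift: Dcn differed by -0.0042 ± 0.11, Col3a1 by -0.037 ± 0.093 and Col1a1 by 0.13 ± 0.081 (SE). None of these passed in the test of 1 probe set per gene. Of markers of other cortical cells, those nominally higher were 2 of 8 for inhibitory neurons, 4 of 7 for astrocytes, 3 of 6 for oligodendrocytes, 4 of 7 for microglia and 1 of 5 for vessels, and 0 passed. The part of these lists in the nominally lower Egr values was not tested. In these bulk samples fewer cells of a type and less RNA per cell cannot be told apart.

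**Figure D3:**
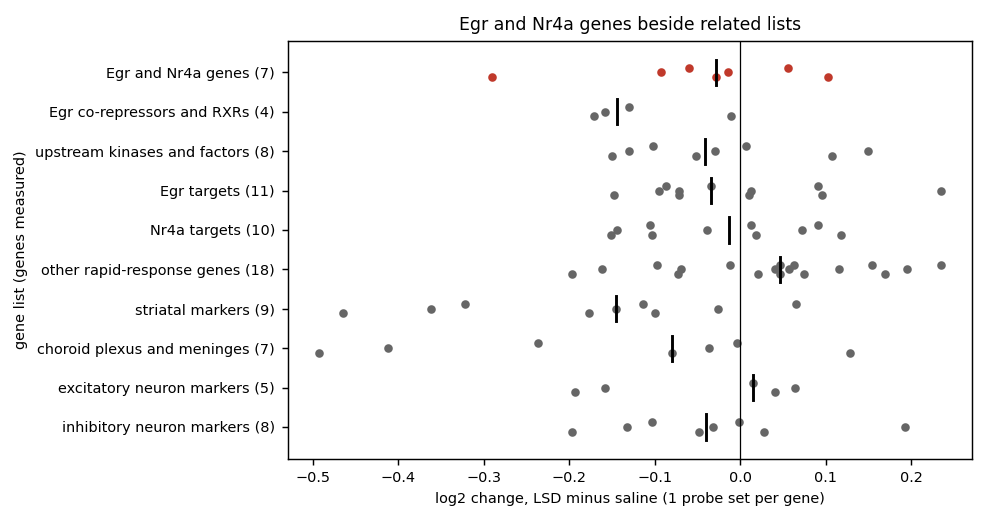
Log2 difference, LSD minus saline (horizontal axis), of the 7 Egr and Nr4a genes (red) and of the measured genes of related lists (grey), with 1 point per gene from its probe set of highest mean signal and a black bar at the list median. The Egr and Nr4a genes centre on -0.03. The striatal markers and the joint list of co-repressors and retinoid X receptors centre to the left, each list with a median of -0.14. Nab1, the only co-repressor measured, lies at -0.01.

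Patterns across the 6 arrays were compared with those of all other genes by Pearson's r, as a description over 6 points from 7002 to 7005 candidate probe sets, among which high values arise readily. The 3 most alike were Pitpnb (r = 0.998), Myl2 and Scarb2 for Egr1, Slc6a15 (0.990), Spam1 and Nup62 for Egr2, and Dnajc5 (0.971), Gzmm and RT1-DMb for Egr3. For Egr4 they were Muc3 (0.984), Itpkb and Tnf, and for Nr4a1 Nat2 (0.992), Pi4ka and Thra. For Nr4a2 they were Add1 (0.997), Slc22a7 and Mdm2, and for Nr4a3 Pou3f4 (0.990), Foxs1 and Bex3. No member of the group was among the 3 most alike of another. Between probe sets of the same gene r ran lower, from -0.0034 (M18416_at and U75398_s_at of Egr1) to 0.866 (AF023087_s_at and rc_AI176662_s_at of Egr1).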

How the data were processed

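Robust multi-array averaging (rma, from affy, version not given in the sources used here) was applied by the authors, and the deposited values are on a log2 scale. That method corrects background, makes the distributions of the 6 arrays nearly equal and summarises each probe set, so a shift shared by most transcripts cannot be seen. Setting aside 59 control probe sets left 8740, of which 7006 had 1 gene symbol. Symbols came from the platform annotation, and promoters from RefSeq (GRCr8). The LSD and saline arrays were tested against each other by limma 3.58.1 (lmFit, eBayes; two-sided, no covariate) under R 4.3.3, with Benjamini-Hochberg adjustment over all probe sets and a threshold of 0.05. Arrays have no read depth, and their number limits the precision. Alternatives were other scalings, the removal of probe sets of low signal, a trended and robust prior, array weights, a replicate block, an exact rank test, other gene summaries and leaving out each array. Named were all member probe sets and up to 4 genes of lowest p from each list of partners, upstream factors and targets. Of the marker lists, Penk, Arpp21, Ttr and Enpp2 were those of most negative difference in their lists. Slc17a7 and Nrgn were those of lowest and highest signal. Pdyn, Gng7, Dcn, Col3a1 and Col1a1 were named as members without such a difference. The other rapid-response genes named were those without overlap. Members and lists were chosen with earlier results of these data known.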

Additional observations from a re-analysis of the deposited data

How the results depend on the processing

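Under 14 alternatives 0 of the member probe sets passed the threshold, and the lowest adjusted p was 0.197 (Egr1 M18416_at with array weights). Over all probe sets few passed either, at most 42 of 8740 (array weights). With the replicate block, with the exact rank test and without LSD 1, LSD 2, LSD 3, Saline 2 or Saline 3, 0 passed. In those settings a count of 0 says nothing particular about the members. The number with an unadjusted p below 0.05, which was 1, was 2 with array weights, where 17.0% of all probe sets had one, against 3.92% without them. It was 0 with an intensity trend and robust prior, where 4.83% of all probe sets had one. It was 0 among the 10 probe sets above the median signal, which leave Egr2 out, against 7.55% of all such probe sets. With the replicate block it was 0, against 262 of 8740, and with the exact rank test 0, as over all probe sets. Without single arrays it was 0 to 1 (0 without LSD 1, LSD 2, Saline 1 or Saline 3). Of all probe sets 2.94% (without LSD 2) to 9.22% (without Saline 1) had one there. Beside these shares, counts of 0 or 1 among so few probe sets say nothing particular about the members. The median over the 15 lay between -0.077 (without Saline 1) and 0.0022 (without LSD 1). Whether replicate numbers pair the arrays cannot be settled with 3 arrays per group. Same-numbered arrays deviated from their group means with correlations of -0.018, -0.23 and 0.17, and other pairs with -0.15 to 0.20. With array weights the sign turned for U75398_s_at (-0.0049), rc_AI144873_at (0.0060) and U17254_at (-0.076). With the most variable probe set per gene Nr4a1 was at 0.036. Other scalings turned no sign, although under cyclic loess the groups no longer overlapped in 2 members, M18416_at and U78102_at, both lower with LSD, as in 4.71% of all probe sets. Without single arrays the log2 difference crossed 0 for U75398_s_at (-0.021 to 0.076), U12428_at (-0.071 to 0.035), rc_AI144873_at (-0.13 to 0.014), rc_AI145177_f_at (-0.085 to 0.0019), U17254_at (-0.037 to 0.098), rc_AI176710_at (-0.081 to 0.18) and rc_AI145834_at (-0.16 to 0.056). The pairs of probe sets without overlap numbered 2 to 5, with 4 without LSD 2 or Saline 3 and 5 without Saline 2. The causes were not tested. Dim probe sets, those of Egr2 among them, tend to have compressed differences.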
